A study of Mus musculus with 15 samples.

Results

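Glucuronosyltransferases, glutathione transferases, sulfotransferases and carboxylesterases were followed across 15 libraries of poly(A) RNA from mouse liver. The genes were taken by symbol: Ugt1 and Ugt2, the Gst classes alpha, mu, pi, theta, omega and kappa, Mgst, Sult and Ces1 to Ces4. Of 24411 genes in the files, 78 had such a symbol and 66 of these reached the minimum of 10 counts summed over the 15 libraries. Of the 66, 54 had enough counts to be tested for differences and 12 did not. The libraries fall into 3 groups: 5 from livers labelled Yap OE (Yap overexpression), 6 from livers labelled LATS KO (Lats knockout) and 4 labelled TdTomato, after the red fluorescent protein, used here as the controls. The labels name no promoter, Cre line, vehicle, age, sex or time for these groups, and their protocol text describes mice of a different design, so nothing on the animals was taken from it. Nor is it stated whether each library is a different animal, so p-values measure the spread between libraries, which may be technical.

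LATS kinases of the Hippo pathway keep the coactivator YAP out of the nucleus, where YAP acts on genes mainly through TEAD factors. In the liver, conjugating enzymes attach glucuronic acid (UGT), glutathione (GST) or sulfate (SULT) to drugs, steroids, bile acids, bilirubin and reactive lipids, which makes them easier to excrete. Carboxylesterases cut ester bonds in drugs and in lipids, and several of the mouse enzymes act on the triglyceride stores of hepatocytes.

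Depth ranged from 6166680 to 28225360 counts assigned to genes per library. LATS KO 3 and TdTomato 1 stood apart, with 89.9% and 78.5% of their reads unmapped against 2.53% to 16.7% elsewhere, and with 9710 and 8501 genes detected against at least 13372 in each other library. Results are therefore also given from a fit without these 2 libraries, called the reduced fit. Yap1 was at 146 to 212 CPM (counts scaled to library size with TMM factors) in Yap OE, against 94.9 to 115 CPM in TdTomato, with a log2 fold change of 0.82 ± 0.17 (SE, adjusted p = 0.00433). Lats1 was at 0 to 27.4 CPM in LATS KO, against 0 to 46.0 CPM in TdTomato, and passed the test in the reduced fit (−1.10, adjusted p = 0.0248) but not with all libraries (−0.94, adjusted p = 0.62). Lats2 was at 7.67 to 41.0 CPM in LATS KO, against 0 to 19.6 CPM in TdTomato (0.58, adjusted p = 0.695). Reads from undeleted exons are counted too, so these values do not check the knockout.

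Yap OE livers had lower levels of most of these enzymes than TdTomato livers, while a small set was higher. Of the 54 tested members, 23 fell, 7 rose and 24 did not pass the test (edgeR quasi-likelihood test, Benjamini-Hochberg adjusted p below 0.05 over all 13055 genes). Over all genes tested, 10.8% fell and 17.9% rose, 28.7% in all, so falls were more common among the members than in the background and rises were not. The median log2 fold change was −1.41 over the members, against 0.17 over all genes. The risers were Gsta1, Gstm1, Gstm2, Gstm5, Mgst3, Sult1a1 and Sult2b1. The falls took in members of every family except the alpha and mu glutathione transferases and the Sult2 sulfotransferases. In the reduced fit the same 30 members passed in the same direction and 7 more fell, which made 30 falls and 7 rises among 56 tested members (21.2% and 27.2% over all genes). Values of 29 tested members were lower in every Yap OE library than in every TdTomato library and those of 7 were higher (13.4% and 28.3% over all genes). A gene with no count in TdTomato 1, where 8501 genes were detected, cannot be lower than every TdTomato library. That library therefore holds down the 13.4%. RLE factors, a different scaling, moved the median of all genes to 0.34 and gave 20 falls and 8 rises, and Gsta4 was the only tested member to change sign.

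**Figure D1:**
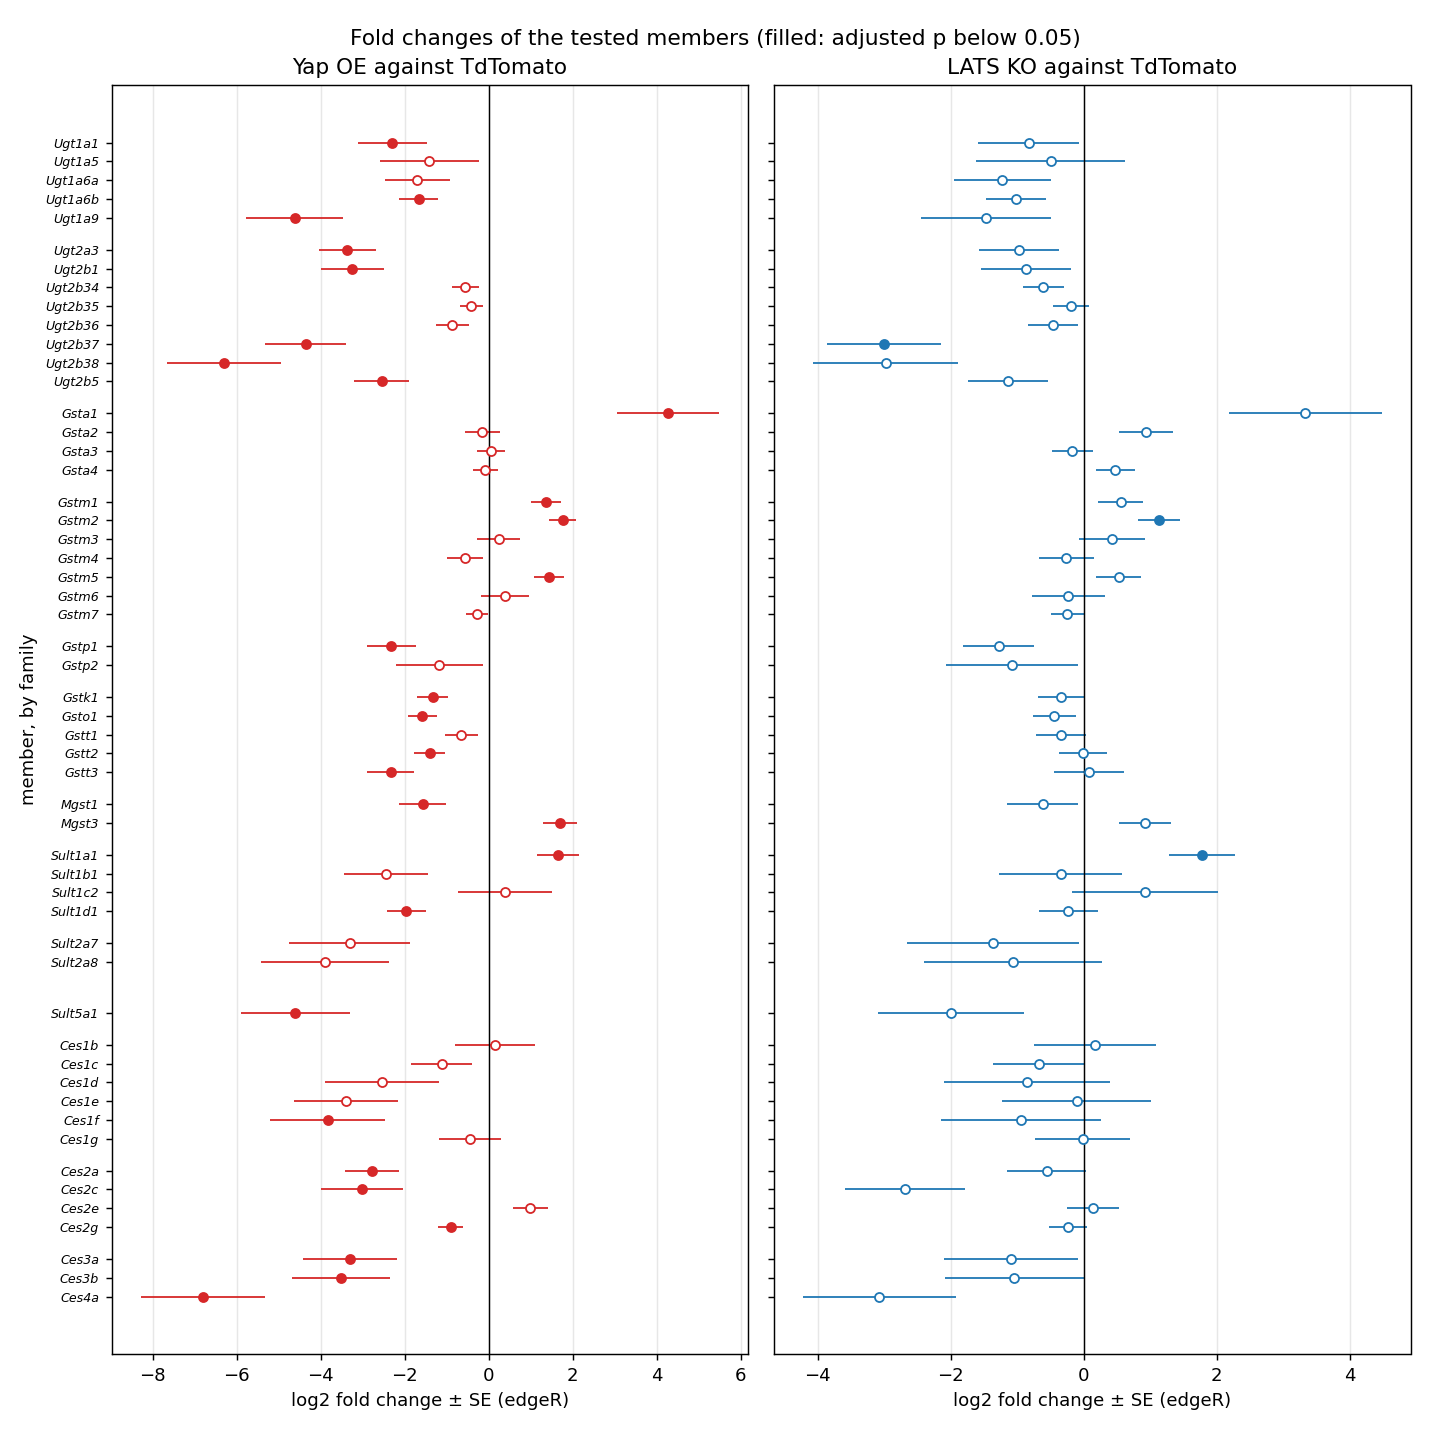
Log2 fold changes with their SE (horizontal axis) of the tested members, ordered by family, for Yap OE against TdTomato (left, red) and LATS KO against TdTomato (right, blue). Filled points passed the test at an adjusted p below 0.05. Most Yap OE points lie left of 0, and filled points right of 0 are found in the alpha and mu glutathione transferases, Mgst3 and Sult1a1. Sult2b1 is not drawn because no TdTomato library held a count of it.

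LATS KO livers did not form a uniform group. Of the 54 tested members, 33, 37, 36, 11, 5 and 3 were below every TdTomato library in LATS KO 1 to 6, which is 61.1%, 68.5%, 66.7%, 20.4%, 9.26% and 5.56% of them. Over all genes tested, the shares were 18.9%, 23.0%, 29.7%, 10.53%, 8.72% and 9.40% in the same libraries. Genes with no count in TdTomato 1, where 8501 genes were detected, cannot be below every TdTomato library. The shares over all genes are held down by this, and shares without TdTomato 1 are not given. In Yap OE 1 to 5, 33, 31, 32, 33 and 32 members were below every TdTomato library, where 19.7% to 22.2% of all genes were. The labels give no reason for the spread among LATS KO libraries, and all 6 are kept as a single group in every test. LATS KO 3 had few mapped reads, whereas 3.46% and 4.95% of the reads of LATS KO 1 and 2 were unmapped, fewer than the 10.1% to 16.7% of LATS KO 4 to 6. In LATS KO 3 to 6, 17.2% to 25.8% of mapped reads fell outside genes, against 7.05% and 6.57% in LATS KO 1 and 2. The part of these read shares in the spread was not tested.

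With that spread, 2 members rose in LATS KO (Gstm2 and Sult1a1), 1 fell (Ugt2b37) and 51 did not pass the test. Over all genes, 10% rose and 0.973% fell, 11% in all. The median of the members was −0.40, against 0.13 over all genes. In the reduced fit 3 of 56 rose (Gsta1, Gstm2 and Mgst3) and 6 fell (Ugt1a6a, Ugt1a6b, Ugt2b34, Ugt2b37, Ces2c and Ces4a), against 13.7% and 3.24% of all genes. Groups did not overlap for Sult1a1, which was higher, and for Ugt2b37 and Ces2c, which were lower (6.65% and 1.90% over all genes). The 1.90% is again held down by genes with no count in TdTomato 1. A fit of LATS KO and TdTomato alone, without the Yap OE libraries, called no member, with 9 at an unadjusted p below 0.05 (edgeR), whereas DESeq2 called 8 and voom 13 on all libraries. Both comparisons share the TdTomato libraries, so their values are set side by side and not correlated.

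**Figure D2:**
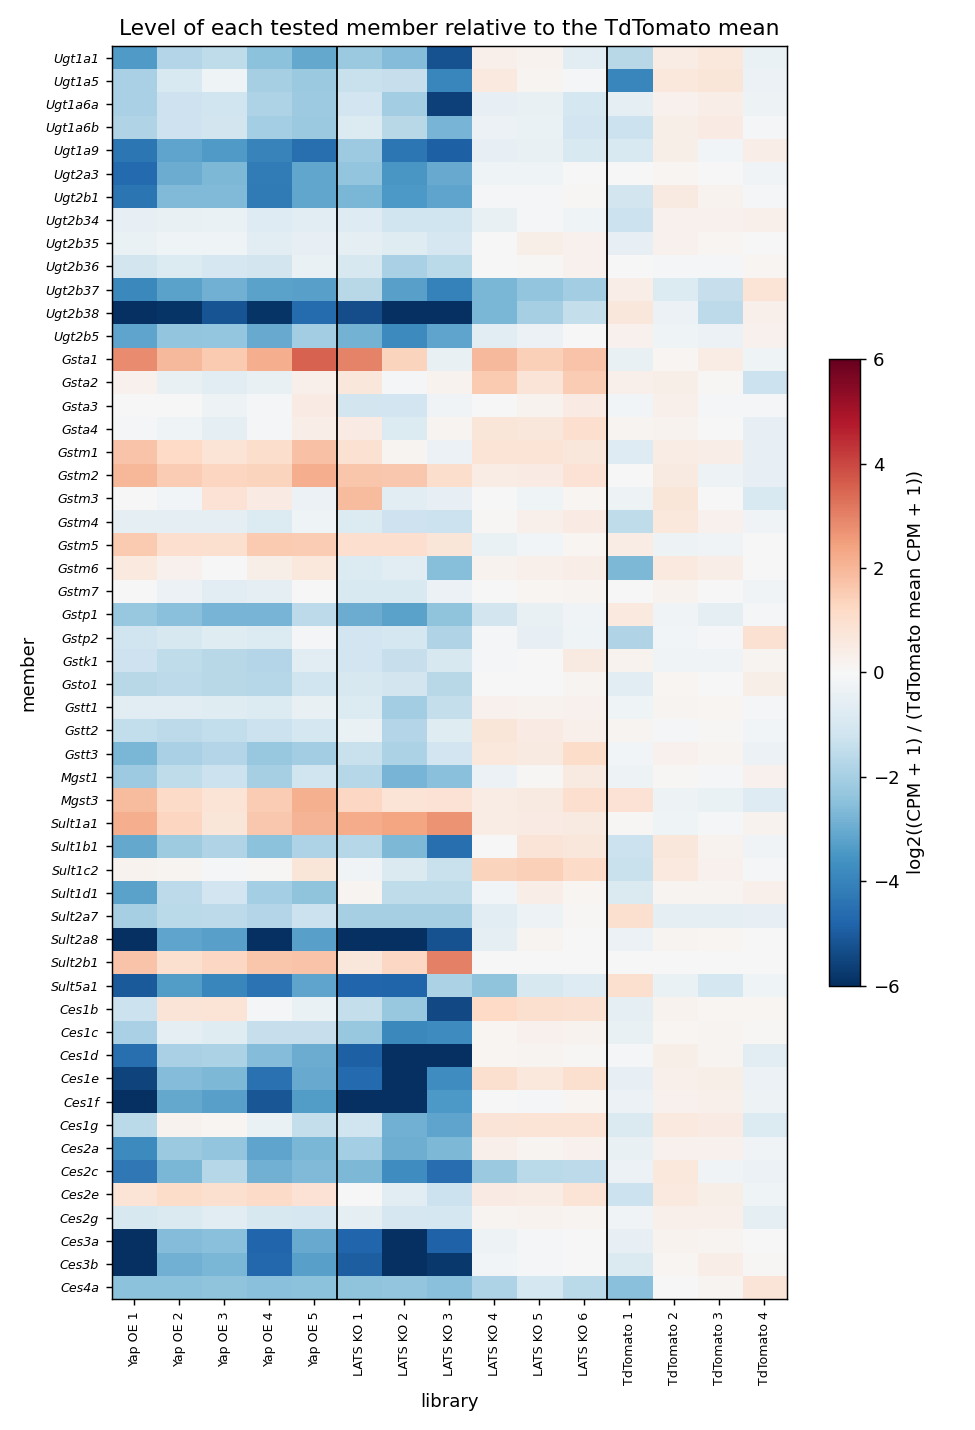
Level of each tested member (rows, by family) in each library (columns) as the log2 ratio of CPM + 1 to the TdTomato mean CPM + 1. Blue cells are below and red cells above that mean. The Yap OE columns are blue over most of the Ugt, Sult2a and Ces rows and red over Gsta1, Gstm1, Gstm2, Gstm5, Mgst3 and Sult1a1, and LATS KO 1, 2 and 3 are darker blue over most of the Ces rows than LATS KO 4, 5 and 6.

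Summed over all 66 members, the module took up 8603, 9926, 9006, 7657 and 11257 CPM in Yap OE 1 to 5, 7234, 4845, 5845, 18553, 21291 and 23330.4 CPM in LATS KO 1 to 6 and 18309, 22454, 21083 and 20587 CPM in TdTomato 1 to 4. Every Yap OE sum was below every TdTomato sum, and the LATS KO sums lay on both sides of the Yap OE range. The enzyme with the highest level also differed between groups. Per kilobase of exon, Gstp1 was the highest member in TdTomato, at 1907 CPM per kb on average, followed by Mgst1 at 1128 and Ces1c at 1101. In Yap OE, Gstm1 was highest at 1318 CPM per kb, followed by Sult1a1 at 509, Ces1c at 507 and Gstp1 at 383. LATS KO averaged 786 CPM per kb for Gstp1, 755 for Gstm1 and 736 for Mgst1, but its libraries differed in which member was highest. It was Gstm1 in LATS KO 1 at 953 CPM per kb, Sult1a1 in LATS KO 2 and 3 at 825 and 1053, Ces1c in LATS KO 4 at 1182, and Gstp1 in LATS KO 5 and 6 at 1378 and 1637.

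**Figure D3:**
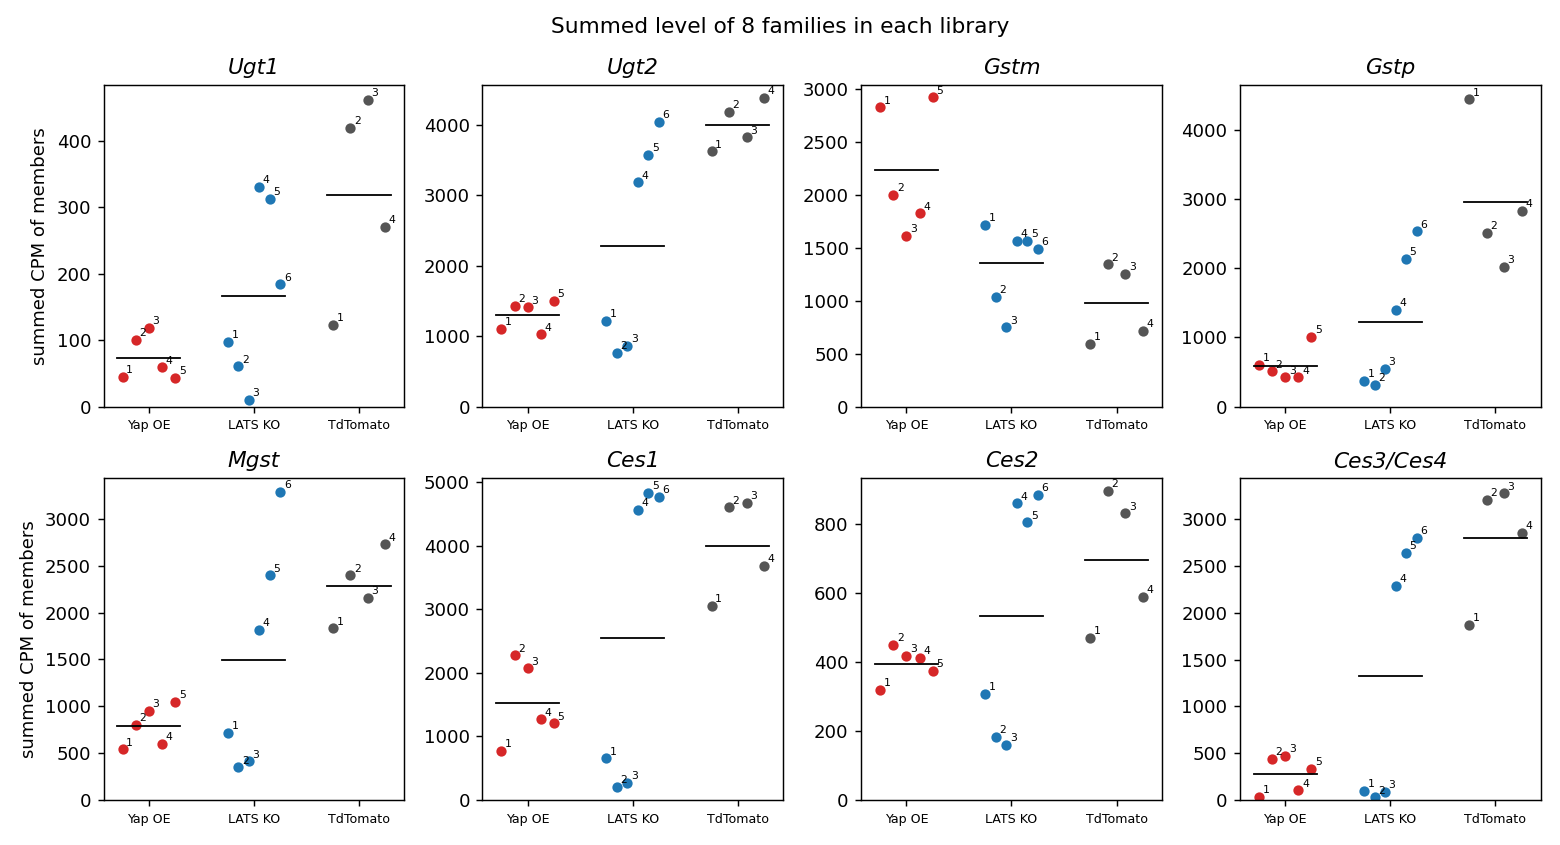
Summed CPM of the members of 8 families (vertical axes, from 0) in each library of Yap OE (red), LATS KO (blue) and TdTomato (grey), with library numbers beside the points and group means as lines. The Gstm sums of all 5 Yap OE libraries, from 1616 to 2921 CPM, lie above the TdTomato sums, and their Ces3/Ces4 sums, from 34.6 to 471 CPM, lie below them.

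The mu glutathione transferases, cytosolic enzymes that add glutathione to electrophiles, were the family with the most rises in Yap OE. All 7 genes were tested: 3 rose, none fell (17.9% and 10.8% over all genes), and all 3 kept their call when any single library was left out. Gstm1, the highest mu member per kilobase of exon, was at 2489, 1740.4, 1355, 1549 and 2575 CPM in Yap OE 1 to 5, 1404, 835, 586, 1327, 1317 and 1206 CPM in LATS KO 1 to 6 and 449, 1033, 1014 and 531 CPM in TdTomato 1 to 4. All Yap OE values were above all TdTomato values, and LATS KO overlapped both groups. edgeR gave a log2 fold change of 1.36 ± 0.36 (SE, adjusted p = 0.0119, 1.18 in the reduced fit) in Yap OE. LATS KO had a value of 0.56 ± 0.34 (SE, adjusted p = 0.336, 0.50 in the reduced fit).

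Gstm2 was at 98.8, 70.7, 60.2, 62.6 and 110.4 CPM in Yap OE 1 to 5, 76.8, 74.5, 50.1, 33.1, 33.6 and 44.5 CPM in LATS KO 1 to 6 and 24.4, 35, 19.2 and 16.6 CPM in TdTomato 1 to 4. Yap OE did not overlap TdTomato, and LATS KO 4 and 5 were below the highest TdTomato library. Its log2 fold change was 1.76 ± 0.33 (SE, adjusted p = 0.00278, 1.77 in the reduced fit) in Yap OE. It was 1.13 ± 0.31 (SE, adjusted p = 0.0299, 1.15 in the reduced fit) in LATS KO, where the call was lost without TdTomato 1, 3 or 4 or LATS KO 1 or 2, at an adjusted p of up to 0.101. Leaving out any single library gave log2 fold changes of 0.99 to 1.38 in LATS KO. Gstm5 averaged 30.4 ± 6.77 CPM in Yap OE, 16.2 ± 6.87 CPM in LATS KO and 11.3 ± 2.99 CPM in TdTomato (SD, n = 5, 6 and 4), a log2 fold change of 1.43 ± 0.36 (SE, adjusted p = 0.00989, 1.63 in the reduced fit). Its LATS KO mean lay between those of the other groups.

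The other 4 mu genes had log2 fold changes between −0.56 and 0.38 in Yap OE and did not pass the test. Gstm6 was at 79.1, 63.6, 51.4, 67.2 and 81.4 CPM in Yap OE 1 to 5, 29.1, 32.4, 8.0, 61.5, 66 and 70.6 CPM in LATS KO 1 to 6 and 7.28, 80.4, 70.5 and 51.7 CPM in TdTomato 1 to 4. Its lowest values were those of LATS KO 3 and TdTomato 1, the libraries with few mapped reads. Gstm7 was at 63.5, 48.1, 40.3, 42.9 and 62.9 CPM in Yap OE 1 to 5, 32.9, 32.8, 49.2, 62.2, 67.7 and 70.9 CPM in LATS KO 1 to 6 and 60.6, 73.2, 62.8 and 53.5 CPM in TdTomato 1 to 4. Yap OE and TdTomato overlapped for both, with log2 fold changes of 0.38 ± 0.58 (SE, adjusted p = 0.669, 0.02 in the reduced fit) for Gstm6 and −0.28 ± 0.26 (SE, adjusted p = 0.461, −0.29 in the reduced fit) for Gstm7.

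The 7 mu genes lie together on chromosome 3, between 107895821 and 108044894 (GRCm38, the assembly also called mm10), within 149 kb. Because Gstm2 was called higher in both groups, the 250 bases before its start are shown as RefSeq gives them for GRCm38.p6 (chr3:107986421-107986670, minus strand). Capitals mark GGAATG, the core of the TEAD motif, on either strand, so CATTCC is the same motif read from the other strand.
Gstm2: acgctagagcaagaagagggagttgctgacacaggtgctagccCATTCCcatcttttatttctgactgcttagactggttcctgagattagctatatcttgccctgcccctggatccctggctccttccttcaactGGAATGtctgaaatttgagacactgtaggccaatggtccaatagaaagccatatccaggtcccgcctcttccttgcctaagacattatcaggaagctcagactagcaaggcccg
The window held GGAATG at 2 places, while 12.6% of the 32851 promoter windows of this length in the RefSeq table held it at least once. Windows could be matched for 54 members, 51 of them at an annotated transcript start, and 6 of these held it: 2 of the 7 risers (Gstm2 and Sult2b1), 1 of the 19 fallers with a window (Sult5a1), and Gstm7, Sult1e1 and Ugt1a10. These matches are letters in a window and say nothing on binding.

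Of the 4 alpha glutathione transferases, which reduce lipid peroxides and clear reactive aldehydes, Gsta1 alone rose in Yap OE. Gsta3, the highest of them per kilobase of exon and in mice an enzyme that detoxifies aflatoxin epoxide, was at 961, 945, 768, 900.0 and 1329.6 CPM in Yap OE 1 to 5, 445, 430.3, 826, 933, 1078 and 1307 CPM in LATS KO 1 to 6 and 849.6, 1165, 890.3 and 864 CPM in TdTomato 1 to 4. The groups overlapped widely, and its log2 fold change was 0.06 ± 0.33 (SE, adjusted p = 0.922, 0.01 in the reduced fit) in Yap OE. LATS KO gave −0.17 ± 0.31 (SE, adjusted p = 0.796, −0.22 in the reduced fit).

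Gsta4, which conjugates the aldehyde hydroxynonenal, was at 67.8, 57.5, 48.2, 66.8 and 91.8 CPM in Yap OE 1 to 5, 97.6, 39.1, 77.4, 115, 113 and 141 CPM in LATS KO 1 to 6 and 78.5, 80.1, 71.5 and 50.2 CPM in TdTomato 1 to 4. Again the groups overlapped, and LATS KO 4 to 6 were the highest. On the log2 scale the difference from TdTomato was −0.08 ± 0.30 (SE, adjusted p = 0.885, −0.02 in the reduced fit) in Yap OE. For LATS KO the value was 0.47 ± 0.30 (SE, adjusted p = 0.352, 0.59 in the reduced fit). Gsta2 was at 22.3, 13.3, 11.4, 13.6 and 23.1 CPM in Yap OE 1 to 5, 30.8, 17.6, 21.6, 56.6, 32.1 and 55.1 CPM in LATS KO 1 to 6 and 23.4, 24, 19.9 and 7.13 CPM in TdTomato 1 to 4. TdTomato 4 was the lowest library and LATS KO 4 and 6 the highest. Against TdTomato, the log2 fold change was −0.15 ± 0.41 (SE, adjusted p = 0.828, −0.02 in the reduced fit) in Yap OE. The LATS KO value was 0.94 ± 0.41 (SE, adjusted p = 0.159, 1.18 in the reduced fit).

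Gsta1 was scarce, at 8.99, 4.30, 3.14, 5.15 and 15.2 CPM in Yap OE 1 to 5, 9.74, 2.52, 0, 4.30, 2.70 and 3.55 CPM in LATS KO 1 to 6 and 0, 0.497, 0.874 and 0.144 CPM in TdTomato 1 to 4. It was higher in all Yap OE libraries than in any TdTomato library, and of the LATS KO libraries only LATS KO 3, with no count, lay within the TdTomato range. This gave a log2 fold change of 4.27 ± 1.22 (SE, adjusted p = 0.0176, 3.91 in the reduced fit) in Yap OE. The call was lost without TdTomato 4 (adjusted p = 0.055), and the value was 5.03 without TdTomato 3. In LATS KO it was 3.33 ± 1.15 (SE, adjusted p = 0.0769, 3.22 in the reduced fit). Of the 100-base windows of the Gsta1 transcripts, 80.6% also occur in other genes, most often Gm3776 and Gsta2. Reads that map to several places may therefore be missing from its counts.

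The membrane-bound microsomal transferases moved in opposite directions in Yap OE. Mgst3, which acts on leukotriene precursors and lipid peroxides, was at 33.4, 19.6, 15.1, 25.3 and 39.2 CPM in Yap OE 1 to 5, 20.8, 15, 15.8, 11.6, 12.3 and 17.5 CPM in LATS KO 1 to 6 and 16, 6.40, 6.04 and 4.40 CPM in TdTomato 1 to 4. TdTomato 1 was above the lowest Yap OE library, and the other 3 TdTomato libraries were below all 11 Yap OE and LATS KO libraries. The fitted log2 fold change was 1.70 ± 0.41 (SE, adjusted p = 0.00867, 2.24 in the reduced fit) in Yap OE. It was 0.92 ± 0.39 (SE, adjusted p = 0.148, 1.46 in the reduced fit) in LATS KO. Mgst1, a glutathione transferase and peroxidase of the endoplasmic reticulum, was at 508, 783, 938, 575 and 1008 CPM in Yap OE 1 to 5, 693, 333, 395, 1805, 2386 and 3272 CPM in LATS KO 1 to 6 and 1815, 2391, 2155 and 2725 CPM in TdTomato 1 to 4. All Yap OE values were below all TdTomato values, as were those of LATS KO 1 to 4, while LATS KO 6 was above them. edgeR gave a log2 fold change of −1.58 ± 0.56 (SE, adjusted p = 0.0469, −1.67 in the reduced fit) in Yap OE. The same fit gave −0.62 ± 0.53 (SE, adjusted p = 0.525, −0.51 in the reduced fit) in LATS KO. The Yap OE call was lost without any single TdTomato or Yap OE library or without LATS KO 4, at an adjusted p of up to 0.105, and with RLE factors (adjusted p = 0.0533). Mgst2 had 2 counts in Yap OE, 10 in LATS KO and 0 in TdTomato and was not tested.

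Gstp1, the pi class enzyme, was the highest glutathione transferase per kilobase of exon in TdTomato livers and fell in Yap OE. It was at 605, 513, 420.1, 421 and 1008 CPM in Yap OE 1 to 5, 375, 317, 549, 1396, 2134 and 2534 CPM in LATS KO 1 to 6 and 4446, 2516, 2021 and 2824 CPM in TdTomato 1 to 4. Yap OE did not overlap TdTomato, and LATS KO spanned the range from below all Yap OE libraries to above 2 TdTomato libraries. Its log2 fold change was −2.31 ± 0.58 (SE, adjusted p = 0.0094, −2.05 in the reduced fit) in Yap OE. LATS KO had a value of −1.28 ± 0.53 (SE, adjusted p = 0.143, −0.86 in the reduced fit). Its neighbour Gstp2 was at 0.523, 0.741, 1.05, 0.929 and 2.20 CPM in Yap OE 1 to 5, 0.541, 0.675, 0, 2.28, 1.48 and 1.92 CPM in LATS KO 1 to 6 and 0, 2.04, 2.22 and 5.51 CPM in TdTomato 1 to 4, a log2 fold change of −1.17 ± 1.04 (SE, adjusted p = 0.447, −1.59 in the reduced fit) in Yap OE. The transcripts share 100-base windows with other genes, most often each other and a pseudogene. These are 25.1% of the windows of Gstp1 and 46.9% of those of Gstp2, so the split between them is uncertain.

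Gstp1 lies on chromosome 19 (4035407 to 4037985, minus strand), 1 of 2 pi genes within 10.6 kb. Its upstream window is shown because Gstp1 was the highest member of TdTomato livers per kilobase (chr19:4037913-4038162, minus strand, GRCm38.p6, RefSeq), with capitals on TGANNNNGC, the antioxidant response element bound by NRF2, on either strand.
Gstp1: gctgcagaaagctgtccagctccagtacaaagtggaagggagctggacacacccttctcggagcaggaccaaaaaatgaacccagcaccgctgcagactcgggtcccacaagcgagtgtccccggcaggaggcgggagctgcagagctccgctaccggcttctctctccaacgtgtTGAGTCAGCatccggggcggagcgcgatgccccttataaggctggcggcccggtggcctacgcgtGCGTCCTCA
The match TGAGTCAGC includes TGAGTCA, the letters of the AP-1 motif. TGANNNNGC is a loose pattern that 35.2% of all promoter windows hold, and 22 of the 54 members with a window held it: 5 of the 19 fallers (Ces2a, Gstp1, Gstt3, Mgst1 and Ugt1a1), 3 of the 7 risers (Gsta1, Gstm5 and Sult1a1) and 14 others.

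The ratio of Gstm1 to Gstp1, each per kilobase of exon, gives their balance in each library. It was 4.33, 3.57, 3.39, 3.87 and 2.69 in Yap OE 1 to 5, 3.93, 2.77, 1.12, 0.999, 0.649 and 0.500 in LATS KO 1 to 6 and 0.106, 0.431, 0.527 and 0.198 in TdTomato 1 to 4. The Yap OE ratios did not overlap those of TdTomato, and the LATS KO ratios ran from just below the highest TdTomato value to within the Yap OE range. The ratio combines values already tested and was not tested itself.

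**Figure D4:**
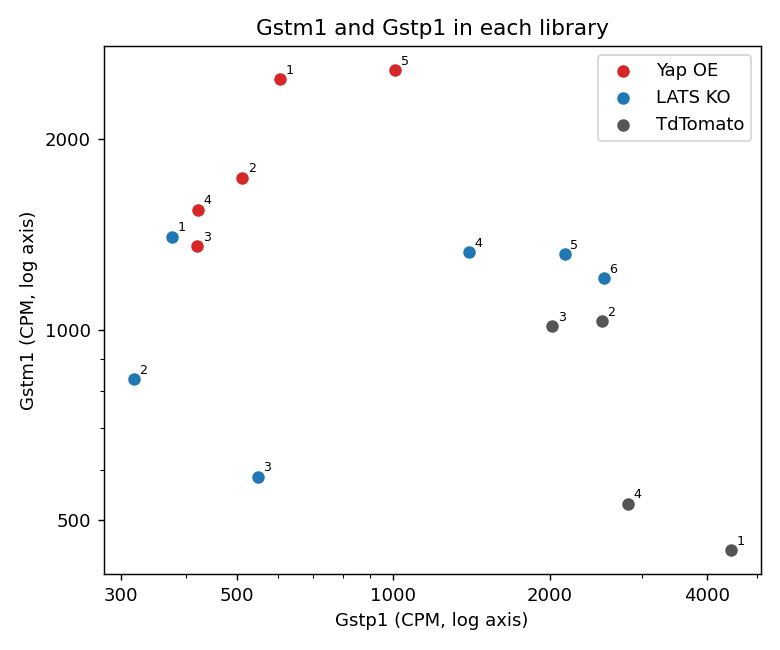
Gstm1 (vertical, CPM) against Gstp1 (horizontal, CPM) in each library, both on log axes, for Yap OE (red), LATS KO (blue) and TdTomato (grey), numbered by library. The 5 Yap OE libraries lie at 420 to 1008 CPM of Gstp1 and 1355 to 2575 CPM of Gstm1, and the 4 TdTomato libraries at 2021 to 4446 CPM of Gstp1 and 449 to 1033 CPM of Gstm1.

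The theta, omega and kappa classes fell in Yap OE in 4 of 5 tested genes (10.8% over all genes). The 4 calls held whichever library was left out. Gstt3, a theta enzyme, was at 2.80, 5.71, 6.51, 4.25 and 5.02 CPM in Yap OE 1 to 5, 9.25, 5.86, 10.6, 38.5, 36.2 and 54.4 CPM in LATS KO 1 to 6 and 21.8, 29.6, 27.3 and 19.3 CPM in TdTomato 1 to 4. Yap OE was below TdTomato throughout, and LATS KO 4 to 6 were above it, and LATS KO 1 to 3 below it. On the log2 scale the difference from TdTomato was −2.33 ± 0.56 (SE, adjusted p = 0.00831, −2.39 in the reduced fit) in Yap OE, 0.08 ± 0.53 (SE, adjusted p = 0.954, 0.18 in the reduced fit) in LATS KO, and −2.41 ± 0.53 (SE, adjusted p = 0.0419, −2.57 in the reduced fit) between Yap OE and LATS KO. That last call was lost without TdTomato 2, 3 or 4, LATS KO 4, 5 or 6, or any Yap OE library, with an adjusted p of up to 0.154. Gstt2 averaged 17.5 ± 2.83 CPM in Yap OE, 46 ± 24.6 CPM in LATS KO and 46.4 ± 5.12 CPM in TdTomato (SD, n = 5, 6 and 4), a log2 fold change of −1.41 ± 0.37 (SE, adjusted p = 0.0128, −1.35 in the reduced fit). Gstt1, the highest theta member per kilobase of exon, was at 98.3, 100.3, 93.2, 87.1 and 114 CPM in Yap OE 1 to 5, 88.4, 35.6, 56.9, 183, 179.9 and 186 CPM in LATS KO 1 to 6 and 128, 176, 169 and 145 CPM in TdTomato 1 to 4. All Yap OE values were below all TdTomato values, and its log2 fold change of −0.65 ± 0.39 (SE, adjusted p = 0.237, −0.73 in the reduced fit) did not pass.

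Gsto1, an omega enzyme that reduces dehydroascorbate and protein thiols, was at 30.9, 32.7, 31.1, 29.7 and 43.8 CPM in Yap OE 1 to 5, 51.5, 46.2, 30.8, 99.3, 103 and 112 CPM in LATS KO 1 to 6 and 64.4, 108, 99.8 and 129.7 CPM in TdTomato 1 to 4. Yap OE and TdTomato did not overlap, and LATS KO reached from the Yap OE range into the TdTomato range. Against TdTomato, the log2 fold change was −1.58 ± 0.34 (SE, adjusted p = 0.00545, −1.74 in the reduced fit) in Yap OE. LATS KO gave −0.44 ± 0.33 (SE, adjusted p = 0.44, −0.45 in the reduced fit). Gstk1, the kappa enzyme of mitochondria and peroxisomes, was at 43.9, 35.6, 33, 30.8 and 66.7 CPM in Yap OE 1 to 5, 47.7, 39.2, 53, 96.7, 108 and 155 CPM in LATS KO 1 to 6 and 122, 92.4, 90 and 118 CPM in TdTomato 1 to 4. All Yap OE values were below all TdTomato values. This gave a log2 fold change of −1.33 ± 0.37 (SE, adjusted p = 0.0152, −1.25 in the reduced fit) in Yap OE. For LATS KO the value was −0.34 ± 0.35 (SE, adjusted p = 0.605, −0.17 in the reduced fit).

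The Ugt1 genes share their last exons and differ in the first. Of these 7 genes, 5 were tested, 3 fell in Yap OE and none rose (10.8% and 17.9% over all genes). Reads that overlap several genes are not assigned to any of them by STAR's gene counting. Ugt1a1, the enzyme that conjugates bilirubin, was at 16.2, 51.8, 61.9, 31.1 and 20.6 CPM in Yap OE 1 to 5, 37, 28.4, 3.78, 217, 203 and 112 CPM in LATS KO 1 to 6 and 55.8, 240.4, 279 and 137 CPM in TdTomato 1 to 4. TdTomato 1 lay within the Yap OE range, and the other TdTomato libraries were above it. The fitted log2 fold change was −2.29 ± 0.82 (SE, adjusted p = 0.0468, −2.59 in the reduced fit) in Yap OE. The LATS KO value was −0.83 ± 0.76 (SE, adjusted p = 0.557, −0.87 in the reduced fit). The Yap OE call was lost without TdTomato 2, 3 or 4, LATS KO 6 or any Yap OE library, at an adjusted p of up to 0.110, and with RLE factors (adjusted p = 0.058).

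Ugt1a9, which in humans conjugates bulky phenols, was at 0.492, 2.33, 1.83, 0.858 and 0.314 CPM in Yap OE 1 to 5, 5.63, 0.461, 0, 20.2, 21 and 14.9 CPM in LATS KO 1 to 6 and 14.7, 36.6, 25.7 and 38.2 CPM in TdTomato 1 to 4. Yap OE was below TdTomato in every library, and LATS KO 4 to 6 were above the lowest TdTomato value. edgeR gave a log2 fold change of −4.62 ± 1.15 (SE, adjusted p = 0.00949, −4.84 in the reduced fit) in Yap OE. It was −1.47 ± 0.98 (SE, adjusted p = 0.386, −1.44 in the reduced fit) in LATS KO, and the Yap OE call held without any single library.

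Ugt1a6b, which conjugates small phenols, was at 13.5, 20.2, 22.5, 11.4 and 9.84 CPM in Yap OE 1 to 5, 27.5, 14.7, 6.22, 38.1, 37.4 and 21.7 CPM in LATS KO 1 to 6 and 19.5, 62.3, 70.1 and 44.9 CPM in TdTomato 1 to 4. TdTomato 1 lay within the Yap OE range. Its log2 fold change was −1.67 ± 0.47 (SE, adjusted p = 0.0171, −1.93 in the reduced fit) in Yap OE, and the call was lost without TdTomato 3 (adjusted p = 0.0519). Its near copy Ugt1a6a was at 11.6, 19.5, 20.5, 12.5 and 9.996 CPM in Yap OE 1 to 5, 21.5, 10.6, 0, 33.6, 34.9 and 22.7 CPM in LATS KO 1 to 6 and 33.1, 57.2, 62.8 and 39.3 CPM in TdTomato 1 to 4. Here Yap OE did not overlap TdTomato, but LATS KO 3 held no count. The log2 fold change of −1.70 ± 0.78 (SE, adjusted p = 0.115, −1.84 in the reduced fit) missed the threshold in Yap OE with all libraries and passed in the reduced fit (adjusted p = 0.00183). Of the 100-base windows of Ugt1a6b, 70.9% recur in other Ugt1a transcripts.

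The enzymes of the Ugt2 genes conjugate steroids, bile acids and drugs. All 8 tested members were below 0 on the log2 scale in Yap OE, under TMM and RLE scaling alike. Of them, 5 passed the test, whereas 10.8% of all genes fell. The 5 calls held without any single library. Ugt2b5, the highest Ugt2 member per kilobase of exon in TdTomato, was at 152, 259.7, 268, 162 and 313 CPM in Yap OE 1 to 5, 186, 93.1, 148, 855, 1037 and 1335 CPM in LATS KO 1 to 6 and 1600.2, 1131, 1049.5 and 1599.9 CPM in TdTomato 1 to 4. Yap OE did not overlap TdTomato, while LATS KO 6 lay within the TdTomato range and LATS KO 4 and 5 just below it. On the log2 scale the difference from TdTomato was −2.54 ± 0.65 (SE, adjusted p = 0.0108, −2.45 in the reduced fit) in Yap OE. The same fit gave −1.14 ± 0.60 (SE, adjusted p = 0.258, −0.85 in the reduced fit) in LATS KO. About 24.7% of its 100-base windows recur in other genes, most often Ugt2b38 and Ugt2b37.

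With all libraries, Ugt2b37 was the only member that fell in both groups. In the reduced fit Ugt1a6a, Ugt1a6b, Ugt2b34, Ces2c and Ces4a also fell in both. Ugt2b37 was at 0.154, 0.815, 1.31, 0.822 and 0.745 CPM in Yap OE 1 to 5, 4.33, 0.737, 0, 1.49, 2.23 and 3.0 CPM in LATS KO 1 to 6 and 21.1, 8.44, 5.48 and 28.4 CPM in TdTomato 1 to 4. Neither Yap OE nor LATS KO overlapped TdTomato. Against TdTomato, the log2 fold change was −4.36 ± 0.97 (SE, adjusted p = 0.00587, −4.20 in the reduced fit) in Yap OE. In LATS KO it was −3.00 ± 0.86 (SE, adjusted p = 0.0356, −2.59 in the reduced fit), and the call was lost without TdTomato 1, 2 or 4, LATS KO 2, 4 or 5, or Yap OE 2 or 4, at an adjusted p of up to 0.116. Ugt2b38 averaged 1.17 ± 1.02 CPM in Yap OE, 11.7 ± 13.8 CPM in LATS KO and 91.9 ± 52 CPM in TdTomato (SD, n = 5, 6 and 4), with a log2 fold change of −6.30 ± 1.35 (SE, adjusted p = 0.00514, −5.96 in the reduced fit) that became −6.89 without Yap OE 5. Ugt2b1 averaged 59.7 ± 31.4 CPM in Yap OE, 310.2 ± 269 CPM in LATS KO and 567 ± 234 CPM in TdTomato (SD, n = 5, 6 and 4), a log2 fold change of −3.25 ± 0.75 (SE, adjusted p = 0.00685, −3.49 in the reduced fit).

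Ugt2a3, which in humans conjugates bile acids, was at 17.3, 58.1, 70.4, 24.2 and 51.6 CPM in Yap OE 1 to 5, 88.8, 39.4, 55.5, 389, 384 and 446 CPM in LATS KO 1 to 6 and 472, 496, 474 and 393 CPM in TdTomato 1 to 4. The TdTomato libraries were close together, all Yap OE libraries lay far below them, LATS KO 2 and 3 lay within the Yap OE range, LATS KO 1 just above it and LATS KO 4 to 6 at or near the TdTomato values. This gave a log2 fold change of −3.37 ± 0.68 (SE, adjusted p = 0.00394, −3.36 in the reduced fit) in Yap OE. LATS KO had a value of −0.97 ± 0.61 (SE, adjusted p = 0.352, −0.75 in the reduced fit).

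Other abundant Ugt2 genes differed less. Ugt2b36 was at 349, 428, 370.5, 342 and 559.7 CPM in Yap OE 1 to 5, 380.4, 194, 243, 746, 795 and 888 CPM in LATS KO 1 to 6 and 725, 722, 720.0 and 817 CPM in TdTomato 1 to 4. No Yap OE library reached the TdTomato range, and the log2 fold change of −0.86 ± 0.40 (SE, adjusted p = 0.115, −0.88 in the reduced fit) did not pass. Ugt2b34 was at 371, 383, 395, 306 and 326 CPM in Yap OE 1 to 5, 305, 226, 227, 387, 482 and 438 CPM in LATS KO 1 to 6 and 216, 624.9, 619 and 638 CPM in TdTomato 1 to 4. TdTomato 1 was below every Yap OE library and the other 3 TdTomato libraries above them all. The fitted log2 fold change was −0.56 ± 0.32 (SE, adjusted p = 0.21, −0.82 in the reduced fit) in Yap OE, and it passed in the reduced fit (adjusted p = 0.0121).

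The window before the start of Ugt2a3 (chr5:87337196-87337445, minus strand, GRCm38.p6, RefSeq) is shown because Ugt2a3 had the smallest adjusted p of the Ugt2 genes in Yap OE. Capitals mark GTTAAT, an arm of the palindromic motif of the hepatocyte factor HNF1, searched on both strands.
Ugt2a3: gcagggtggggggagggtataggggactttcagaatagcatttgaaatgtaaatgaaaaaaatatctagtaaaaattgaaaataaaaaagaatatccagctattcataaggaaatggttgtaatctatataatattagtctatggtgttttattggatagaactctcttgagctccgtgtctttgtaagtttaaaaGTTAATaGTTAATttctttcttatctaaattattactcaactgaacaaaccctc
GTTAAT occurs here at 2 places, in direct repeat and 1 base apart, and was found in 6.43% of all promoter windows. It was present in 9 of the 54 members with a window: 5 of the 19 fallers (Ces3b, Sult1d1, Ugt1a1, Ugt1a9 and Ugt2a3), 1 of the 7 risers (Sult1a1) and 3 others.

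The sulfotransferases went in different directions. Sult1a1, which sulfates phenols, rose in both groups. It was at 1087, 591, 401, 751 and 1009 CPM in Yap OE 1 to 5, 1133, 1243, 1587, 328, 338 and 355 CPM in LATS KO 1 to 6 and 254, 202, 232 and 283 CPM in TdTomato 1 to 4. Neither Yap OE nor LATS KO overlapped TdTomato, LATS KO 1 to 3 were above every Yap OE library, and LATS KO 4 to 6 lay between the TdTomato and the Yap OE ranges. edgeR gave a log2 fold change of 1.66 ± 0.50 (SE, adjusted p = 0.023, 1.68 in the reduced fit) in Yap OE. LATS KO gave 1.77 ± 0.49 (SE, adjusted p = 0.0311, 1.5 in the reduced fit). The Yap OE call was lost without TdTomato 2 or 3 or Yap OE 1, at an adjusted p of up to 0.0614. The LATS KO call was lost without any single TdTomato library, without LATS KO 1 or 2 (adjusted p up to 0.0934) and in the reduced fit (adjusted p = 0.0681).

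The Sult1a1 window (chr7:126676419-126676668, minus strand, GRCm38.p6, RefSeq) is shown because Sult1a1 was the other member called higher in both groups. Capitals mark GTTAAT and TGANNNNGC, which do not overlap in it.
Sult1a1: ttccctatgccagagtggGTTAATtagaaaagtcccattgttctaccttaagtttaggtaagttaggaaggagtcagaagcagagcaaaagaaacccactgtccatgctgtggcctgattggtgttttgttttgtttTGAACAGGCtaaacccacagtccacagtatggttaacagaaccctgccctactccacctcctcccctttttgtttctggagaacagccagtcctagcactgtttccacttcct
Unlike the Gstm2 window, it held no GGAATG.

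Sult1d1, which sulfates catecholamines in mice, fell in Yap OE. It was at 7.85, 26.6, 35.6, 19 and 14.2 CPM in Yap OE 1 to 5, 89.4, 27, 27.3, 72.3, 107 and 86.5 CPM in LATS KO 1 to 6 and 43.3, 90.6, 89.1 and 98.2 CPM in TdTomato 1 to 4. Yap OE did not overlap TdTomato, although Yap OE 3 and TdTomato 1 were close. Its log2 fold change was −1.96 ± 0.47 (SE, adjusted p = 0.00805, −2.17 in the reduced fit) in Yap OE. For LATS KO the value was −0.23 ± 0.44 (SE, adjusted p = 0.804, −0.28 in the reduced fit), and the Yap OE call held without any single library. Sult1b1, which sulfates thyroid hormones, was at 1.75, 4.26, 5.65, 3.29 and 5.53 CPM in Yap OE 1 to 5, 6.11, 2.58, 0, 22.3, 38.4 and 36.1 CPM in LATS KO 1 to 6 and 8.67, 36, 25.8 and 19 CPM in TdTomato 1 to 4. Yap OE was below TdTomato in every library, although TdTomato 1 was close. The log2 fold change of −2.45 ± 0.99 (SE, adjusted p = 0.077, −2.72 in the reduced fit) did not pass in Yap OE with all libraries and passed in the reduced fit (adjusted p = 0.00662).

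The Sult2 genes, for steroids and bile acids, varied widely between libraries. Sult2a8, a bile acid sulfotransferase of mouse liver, was at 3.35, 81.1, 74.6, 8.83 and 75.5 CPM in Yap OE 1 to 5, 2.54, 0.154, 18.3, 505, 802 and 748 CPM in LATS KO 1 to 6 and 571, 806, 792 and 729.5 CPM in TdTomato 1 to 4. All Yap OE values were below all TdTomato values, the LATS KO values reached from 0.154 to 802 CPM, and the test did not pass in either group. On the log2 scale the difference from TdTomato was −3.90 ± 1.52 (SE, adjusted p = 0.0663, −4.0 in the reduced fit) in Yap OE. The LATS KO value was −1.07 ± 1.33 (SE, adjusted p = 0.681, −0.92 in the reduced fit). Sult2a7 was at 0, 0.296, 0.374, 0.179 and 0.666 CPM in Yap OE 1 to 5, 0, 0, 0, 1.49, 2.29 and 3.24 CPM in LATS KO 1 to 6 and 6.89, 1.71, 1.67 and 1.87 CPM in TdTomato 1 to 4. It was below TdTomato in all Yap OE libraries and did not pass either, with a log2 fold change of −3.30 ± 1.44 (SE, adjusted p = 0.0978, −2.53 in the reduced fit) in Yap OE.

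Sult2b1, which sulfates cholesterol and pregnenolone, had no count in any TdTomato library. It was at 2.25, 0.926, 1.38, 2.18 and 2.31 CPM in Yap OE 1 to 5 and 0.595, 1.38, 7.11, 0, 0 and 0 CPM in LATS KO 1 to 6. With a floor of 3 counts over the TdTomato libraries, it was at least 39.3-fold higher in Yap OE and at least 22.6-fold higher in LATS KO. The LATS KO bound was 11.4-fold without LATS KO 3, the library with the highest value. The adjusted p was 0.0279 in Yap OE and 0.0602 in LATS KO, where LATS KO 4 to 6 also held no count. The Yap OE call was lost without TdTomato 2, 3 or 4, at an adjusted p of up to 0.0626. Sult4a1, a brain-enriched family member, was also at 0 in all TdTomato libraries and reached 0.215 to 0.357 CPM in Yap OE, at least 6.46-fold higher, with 42 counts in Yap OE, 2 in LATS KO and no test. Sult5a1 was at 0, 2.19, 1.16, 0.500 and 2.63 CPM in Yap OE 1 to 5, 0.216, 0.154, 7.78, 5.13, 15.8 and 18.2 CPM in LATS KO 1 to 6 and 61.5, 23.3, 14.6 and 26.4 CPM in TdTomato 1 to 4. Yap OE did not overlap TdTomato, and its log2 fold change was −4.60 ± 1.29 (SE, adjusted p = 0.0163, −4.06 in the reduced fit) in Yap OE. It was −2.0 ± 1.10 (SE, adjusted p = 0.284, −1.45 in the reduced fit) in LATS KO.

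The carboxylesterases gave 7 falls and no rise in Yap OE among 13 tested genes (10.8% and 17.9% over all genes). Only the calls of Ces2a and Ces4a held whichever library was left out. In the Ces1 family, 1 of 6 passed. Ces1f, a triglyceride hydrolase of lipid droplets, was at 5.63, 61.4, 53.8, 13.9 and 49.4 CPM in Yap OE 1 to 5, 1.89, 0.246, 47.2, 529, 490.3 and 564 CPM in LATS KO 1 to 6 and 409, 618, 644 and 416 CPM in TdTomato 1 to 4. Yap OE and LATS KO 1 to 3 were far below TdTomato, and LATS KO 4 to 6 lay within its range. Against TdTomato, the log2 fold change was −3.83 ± 1.37 (SE, adjusted p = 0.0472, −3.93 in the reduced fit) in Yap OE. The same fit gave −0.94 ± 1.21 (SE, adjusted p = 0.692, −0.82 in the reduced fit) in LATS KO. The Yap OE call was lost without any single library except LATS KO 1, 2 or 3 (adjusted p up to 0.104), and with RLE factors (adjusted p = 0.0513).

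Ces1d, a triglyceride hydrolase used in lipoprotein assembly, was at 22.6, 143, 146, 89.5 and 67.9 CPM in Yap OE 1 to 5, 17.6, 1.93, 0, 603, 619 and 579 CPM in LATS KO 1 to 6 and 515, 705, 622 and 349.7 CPM in TdTomato 1 to 4. No Yap OE library reached the TdTomato range, and its log2 fold change was −2.55 ± 1.36 (SE, adjusted p = 0.178, −2.58 in the reduced fit) in Yap OE. LATS KO had a value of −0.85 ± 1.25 (SE, adjusted p = 0.738, −0.62 in the reduced fit). When only the Yap OE and TdTomato libraries were fitted with edgeR, Ces1d passed in Yap OE (adjusted p = 0.00236), as did Sult2a8 (adjusted p = 0.00459). Ces1c, an esterase secreted into plasma and the highest Ces1 member per kilobase of exon, was at 658, 1743, 1558, 965 and 967 CPM in Yap OE 1 to 5, 528, 172, 189, 2745, 3073 and 2936 CPM in LATS KO 1 to 6 and 1899, 2771, 2909 and 2656 CPM in TdTomato 1 to 4. LATS KO 1 to 3 were below every Yap OE library, and Yap OE was below TdTomato throughout. This gave a log2 fold change of −1.12 ± 0.72 (SE, adjusted p = 0.274, −1.24 in the reduced fit) in Yap OE. LATS KO gave −0.67 ± 0.69 (SE, adjusted p = 0.605, −0.56 in the reduced fit). The 3 other tested Ces1 genes had log2 fold changes from −3.40 to 0.16 in Yap OE, and none passed.

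In the Ces2 family Ces2a, Ces2c and Ces2g fell in Yap OE and Ces2e did not. Ces2a was at 31.8, 98.3, 88.8, 49.9 and 69.1 CPM in Yap OE 1 to 5, 110.3, 59, 69.8, 572, 519 and 545 CPM in LATS KO 1 to 6 and 338, 556, 544 and 404 CPM in TdTomato 1 to 4. Yap OE did not overlap TdTomato, and LATS KO 4 to 6 lay inside or just above the TdTomato range. The fitted log2 fold change was −2.77 ± 0.64 (SE, adjusted p = 0.00714, −2.89 in the reduced fit) in Yap OE. For LATS KO the value was −0.56 ± 0.59 (SE, adjusted p = 0.618, −0.47 in the reduced fit), and the Yap OE call held without any single library. Ces2e was at 255, 312, 282, 326 and 270.2 CPM in Yap OE 1 to 5, 149, 91.5, 58.5, 208, 200.3 and 258 CPM in LATS KO 1 to 6 and 58.5, 217, 185 and 122 CPM in TdTomato 1 to 4. All 5 Yap OE libraries were above all TdTomato libraries, and the log2 fold change was 0.99 ± 0.41 (SE, adjusted p = 0.0846, 0.72 in the reduced fit) in Yap OE. The LATS KO value was 0.14 ± 0.39 (SE, adjusted p = 0.868, 0.05 in the reduced fit), and neither value passed the threshold. With RLE factors Ces2e joined the rises in Yap OE. Per kilobase of exon, the ratio of Ces2e to Ces2a was 2.77 to 7.01 in Yap OE, 0.318 to 1.35 in LATS KO and 0.151 to 0.342 in TdTomato.

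Ces2c, a lipid hydrolase, averaged 2.84 ± 2.21 CPM in Yap OE, 3.58 ± 2.93 CPM in LATS KO and 23 ± 9.12 CPM in TdTomato (SD, n = 5, 6 and 4). edgeR gave a log2 fold change of −3.02 ± 0.97 (SE, adjusted p = 0.0305, −3.13 in the reduced fit) in Yap OE. It was −2.68 ± 0.90 (SE, adjusted p = 0.0695, −2.54 in the reduced fit) in LATS KO, and the Yap OE call was lost without TdTomato 2 or 4 or Yap OE 1, 2, 4 or 5 (adjusted p up to 0.0797). Ces2g was at 33.1, 36.3, 40.4, 33.9 and 32.5 CPM in Yap OE 1 to 5, 45.1, 32.1, 31.4, 74.6, 77.5 and 74.9 CPM in LATS KO 1 to 6 and 56.2, 83.1, 81.1 and 43.9 CPM in TdTomato 1 to 4. Yap OE was just below TdTomato in every library, and the log2 fold change of −0.91 ± 0.30 (SE, adjusted p = 0.0323, −0.98 in the reduced fit) in Yap OE was the smallest in size of the 30 called. That call was lost without TdTomato 2 or 3 or Yap OE 1, 2, 4 or 5 (adjusted p up to 0.0954).

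Ces3a, the higher Ces3 member per kilobase of exon, was at 26.1, 349, 372, 79.2 and 261 CPM in Yap OE 1 to 5, 78, 21.8, 74.1, 1709, 2015 and 2131 CPM in LATS KO 1 to 6 and 1513, 2490.1, 2414 and 2165 CPM in TdTomato 1 to 4. All Yap OE libraries and LATS KO 1 to 3 lay far below TdTomato, and LATS KO 4 to 6 lay within its range. Its log2 fold change was −3.30 ± 1.12 (SE, adjusted p = 0.0375, −3.44 in the reduced fit) in Yap OE. The same fit gave −1.09 ± 1.00 (SE, adjusted p = 0.556, −0.98 in the reduced fit) in LATS KO. Its neighbour Ces3b was at 8.46, 87.5, 98.5, 23.9 and 68 CPM in Yap OE 1 to 5, 20.4, 6.39, 10.8, 578, 623 and 671 CPM in LATS KO 1 to 6 and 362, 718, 858 and 684 CPM in TdTomato 1 to 4. Again LATS KO 4 to 6 lay within the TdTomato range and all Yap OE libraries and LATS KO 1 to 3 below it. On the log2 scale the difference from TdTomato was −3.52 ± 1.17 (SE, adjusted p = 0.0352, −3.72 in the reduced fit) in Yap OE. LATS KO had a value of −1.04 ± 1.04 (SE, adjusted p = 0.593, −0.99 in the reduced fit). Both Yap OE calls were lost without TdTomato 2, 3 or 4 or any Yap OE library, at adjusted p values of up to 0.0871 for Ces3a and 0.0825 for Ces3b.

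Ces4a was at 0.0308, 0.0370, 0.0748, 0 and 0.0392 CPM in Yap OE 1 to 5, 0.0541, 0.0921, 0, 0.570, 1.75 and 0.841 CPM in LATS KO 1 to 6 and 0, 4.63, 5.40 and 8.67 CPM in TdTomato 1 to 4. TdTomato 1 held no count, while the other 3 TdTomato libraries were above all Yap OE and LATS KO libraries. Against TdTomato, the log2 fold change was −6.80 ± 1.48 (SE, adjusted p = 0.00548, −7.24 in the reduced fit) in Yap OE. LATS KO gave −3.07 ± 1.15 (SE, adjusted p = 0.101, −3.28 in the reduced fit), and it passed in LATS KO in the reduced fit (adjusted p = 0.0139). The window before Ces3b (chr8:105083505-105083754, plus strand, GRCm38.p6, RefSeq) is shown for its GTTAAT, here in capitals. Among the carboxylesterases that fell and had a window, Ces3b alone held GTTAAT. No window was matched for Ces1f and Ces3a, so they were not searched.
Ces3b: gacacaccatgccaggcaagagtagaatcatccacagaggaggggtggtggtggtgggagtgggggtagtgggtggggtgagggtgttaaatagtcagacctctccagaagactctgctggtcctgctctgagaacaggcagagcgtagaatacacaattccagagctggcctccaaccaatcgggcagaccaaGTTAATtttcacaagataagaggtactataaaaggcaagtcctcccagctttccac
The 10 Ces2, Ces3 and Ces4 genes lie within 416 kb of chromosome 8, between 104734003 and 105150109, and 6 of the 7 tested fell, with Ces2e between them above 0.

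**Figure D5:**
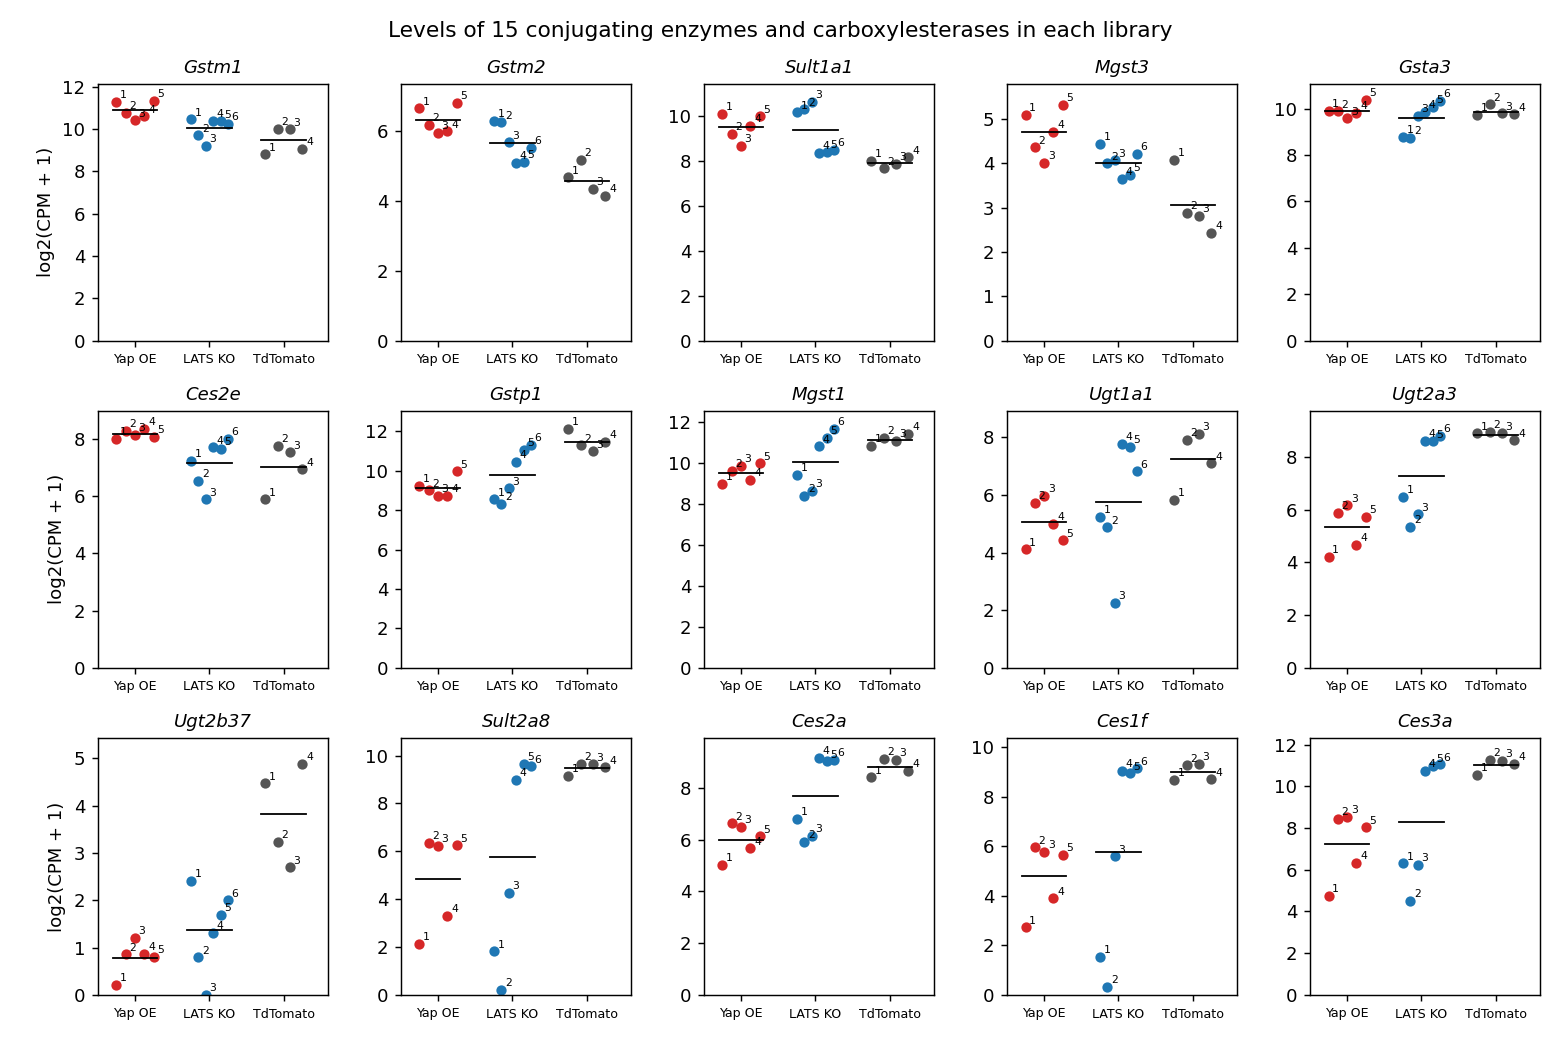
Levels of 15 members in each library as log2(CPM + 1), with an axis from 0, for Yap OE (red), LATS KO (blue) and TdTomato (grey), numbered by library and with group means as lines. Gstm1, Gstm2, Sult1a1 and Ces2e show all Yap OE points above TdTomato, Gsta3 shows overlapping groups, and Gstp1, Ugt2a3, Sult2a8, Ces1f and Ces3a show all Yap OE points below TdTomato with LATS KO 4 to 6 higher than LATS KO 1 to 3.

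The members lie partly in clusters, and over all 54 tested members 41 were below 0 in Yap OE. Of all genes tested, 10.8% fell and 17.9% rose. On chromosome 5, between 86889767 and 87591594, 8 Ugt2 and 3 Sult1 genes lie within 702 kb, and all 10 tested were below 0 in Yap OE, 6 of them past the threshold. On chromosome 1, the Ugt1 genes between 88055388 and 88220002 gave 3 falls and no rise, and on chromosome 10 the theta genes gave 2 falls. The mu cluster on chromosome 3 had 3 rises, 5 of its 7 genes above 0 and no fall. The Ces1 cluster on chromosome 8 had 5 tested genes below 0 and 1 above, with 1 fall, and the Ces2, Ces3 and Ces4 genes on the same chromosome had 6 below, all of them falls, and 1 above. On chromosome 9, Gsta1 was above 0 and rose, and Gsta2 and Gsta4 were below 0, while Gsta4 was at 0.05 with RLE factors. Neighbours of the same family are related in sequence, and some may lose reads that map to several of them, so they are not independent of each other.

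Between Yap OE and LATS KO, Gstt3 alone passed the test, against 0.490% lower and 0.498% higher over all genes, 0.988% in all. No member rose (edgeR), 25 members had an unadjusted p below 0.05, and DESeq2 called 1 higher and 10 lower. No tested member's groups were without overlap (4.76% higher and 1.95% lower over all genes). In the reduced fit Gstm5 was higher and 11 members were lower (5.56% and 7.17% over all genes): Ugt1a9, Ugt2a3, Ugt2b1, Ugt2b38, Gstt2, Gstt3, Gsto1, Sult1b1, Sult1d1, Ces2a and Ces4a. The log2 difference was −2.40 ± 0.62 (SE, adjusted p = 0.0828, −2.60 in the reduced fit) for Ugt2a3, −1.13 ± 0.32 (SE, adjusted p = 0.106, −1.29 in the reduced fit) for Gsto1 and −2.21 ± 0.60 (SE, adjusted p = 0.0981, −2.42 in the reduced fit) for Ces2a. A call against TdTomato in 1 group and none in the other is not in itself a difference between the groups.

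The 12 members too low to be tested were Ugt1a10, Ugt1a7c, Gsto2, Mgst2, Sult1e1, Sult2a1, Sult2a2, Sult4a1, Ces1a, Ces2b, Ces2d-ps and Ces2h. Their highest value in any library was 6.58 CPM, of the estrogen sulfotransferase Sult1e1 in TdTomato 1, while TdTomato 2 to 4 held 0 to 0.221 CPM of it. Ces2b had 3 counts in Yap OE and 56 in TdTomato, a ratio of 0.0247 with an exact 95% counting interval of 0.00495 to 0.0761. It entered the reduced fit, where it fell in Yap OE (−5.29, adjusted p = 0.00364). Ugt1a7c and Sult4a1 were higher in every Yap OE library than in every TdTomato library, and Sult4a1 also than in every LATS KO library. Ugt1a7c had 35 counts in Yap OE and 1 in TdTomato, a ratio of 16.2 with an exact 95% counting interval of 2.72 to 656. LATS KO held 69 counts of it. Ugt1a7c also entered the reduced fit (edgeR) and did not pass there. Its log2 fold change was 3.34 in Yap OE (adjusted p = 0.116) and 4.41 in LATS KO (adjusted p = 0.0815).

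Genes that work beside these enzymes were counted in lists for each role. For comparison, 10.8% of all genes fell and 17.9% rose in Yap OE (21.2% and 27.2% in the reduced fit). In LATS KO, 0.973% of all genes fell and 10% rose. Of 18 other conjugating enzymes, 9 fell and 1 rose in Yap OE (12 and 1 in the reduced fit), with a median of −1.30, and 1 fell and 1 rose in LATS KO. Nnmt, which methylates nicotinamide, averaged 36 ± 19.1 CPM in Yap OE and 357 ± 212 CPM in TdTomato (SD, n = 5 and 4) (log2 fold change −3.31 ± 0.57, adjusted p = 0.0022), and Glyat, which adds glycine to acyl groups, averaged 117 ± 24.6 CPM in Yap OE and 381 ± 56 CPM in TdTomato (SD, n = 5 and 4) (−1.70 ± 0.35, adjusted p = 0.00407). Nnmt was also the gene that fell in LATS KO (−1.67 ± 0.52, adjusted p = 0.0499), where it did not pass in the reduced fit (−1.30, adjusted p = 0.148). Of 13 tested hydrolases outside the Ces families, 7 fell and 1 rose in Yap OE (9 and 1 in the reduced fit), among them Ephx2, the soluble epoxide hydrolase, which averaged 144 ± 31.4 CPM in Yap OE and 882 ± 74.7 CPM in TdTomato (SD, n = 5 and 4) (−2.61 ± 0.53, adjusted p = 0.00402). In LATS KO 1 of the 13 passed, Pnpla2, the adipose triglyceride lipase, which rose (1.01 ± 0.23, adjusted p = 0.0143). That count is near the share of all genes that rose in LATS KO (10%).

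Of 17 genes that supply glutathione and the other donor molecules, 3 rose and 2 fell in Yap OE (3 and 4 in the reduced fit). None passed in LATS KO. With all libraries, the Yap OE counts of this list are near the shares over all genes (17.9% and 10.8%). The 2 falls were Cth and Cbs, the enzymes that turn homocysteine into cysteine. Cth averaged 108 ± 21.4 CPM in Yap OE and 679 ± 132 CPM in TdTomato (SD, n = 5 and 4) (−2.65 ± 0.49, adjusted p = 0.00274), and Cbs averaged 306 ± 40.6 CPM in Yap OE and 1003 ± 59.3 CPM in TdTomato (SD, n = 5 and 4) (−1.71 ± 0.33, adjusted p = 0.00321). Of 18 regulators of these enzymes, 2 rose and 3 fell in Yap OE (2 and 8 in the reduced fit) and 1 rose in LATS KO. With all libraries, these counts too are near the shares over all genes (17.9% and 10.8% in Yap OE, 10% rises in LATS KO). In the reduced fit, 27.2% of all genes rose and 21.2% fell in Yap OE. Nfe2l2, which encodes NRF2, rose in Yap OE (1.56 ± 0.30, adjusted p = 0.00319), as did its partner Maff (2.67 ± 0.41, adjusted p = 0.00145), the regulator that also rose in LATS KO (1.48 ± 0.38, adjusted p = 0.0222). Of 10 known NRF2 target genes outside the module, 5 rose and none fell in Yap OE (17.9% and 10.8% over all genes), with a median log2 fold change of 1.99. In LATS KO 1 rose and none fell (2 and none in the reduced fit), with a median of 2.12. These counts of rises are near the shares over all genes in LATS KO (10%, and 13.7% in the reduced fit). Gpx2 and Slc7a11 had no count in any TdTomato library, so their fitted values in both medians are not measured sizes. This list also shares genes with the glutathione supply list. Osgin1, the gene with the smallest adjusted p, averaged 853 ± 132 CPM in Yap OE and 176 ± 43.1 CPM in TdTomato (SD, n = 5 and 4) (2.28 ± 0.30, adjusted p = 0.000742).

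Markers of other liver cells moved with the groups. In bulk liver, fewer hepatocytes and less of a transcript per hepatocyte cannot be told apart. For comparison, 17.9% of all genes rose and 10.8% fell in Yap OE, and 10% rose and 0.973% fell in LATS KO. In the reduced fit these shares were 27.2% and 21.2% in Yap OE, and 13.7% and 3.24% in LATS KO. Summed over 9 hepatocyte markers, levels were 83021 to 141555 CPM in Yap OE, 43276 to 185448 CPM in LATS KO and 102270.0 to 180062 CPM in TdTomato, and of 8 tested, 2 fell in Yap OE and none passed in LATS KO (5 and 1 in the reduced fit). Summed cholangiocyte markers were at 3835 to 6314 CPM in Yap OE, 109 to 4454 CPM in LATS KO and 45.4 to 61.7 CPM in TdTomato, where Cftr was at 0. These sums were 1379 to 4454 CPM in LATS KO 1 to 3 and 109 to 218 CPM in LATS KO 4 to 6. Of 9 tested cholangiocyte markers, 7 rose in Yap OE and 5 in LATS KO (8 and 3 in the reduced fit). Macrophage and monocyte markers summed to 358 to 689 CPM in Yap OE, 145 to 1025 CPM in LATS KO and 4.03 to 15.2 CPM in TdTomato, and of 10 tested, 9 rose in Yap OE and 10 in LATS KO.

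Stellate cell and fibroblast markers summed to 27.7 to 185 CPM in Yap OE, 0 to 22.4 CPM in LATS KO and 0.0774 to 11.9 CPM in TdTomato, where Col1a1 was at 0, and of 10 tested, 9 rose in Yap OE and 4 in LATS KO (9 and 5 in the reduced fit). Of all genes, 17.9% rose in Yap OE and 10% in LATS KO (27.2% and 13.7% in the reduced fit). Of 10 sinusoidal endothelial markers, 3 rose in Yap OE and 3 in LATS KO (8 and 8 in the reduced fit), with sums of 141 to 225 CPM in Yap OE, 33.6 to 354 CPM in LATS KO and 41.7 to 63.7 CPM in TdTomato. Of the T, B and NK cell markers 2 were tested, of which Ptprc, shared by all white blood cells, rose in both groups. The other, Cd4, had log2 fold changes of −2.66 in Yap OE and −2.01 in LATS KO that did not pass (adjusted p = 0.0803 and 0.236), and it fell in both in the reduced fit (adjusted p = 0.00417 and 0.0444). Their sums were 7.32 to 14.4 CPM in Yap OE, 2.67 to 30.9 CPM in LATS KO and 0 to 3.11 CPM in TdTomato, where Cd3e, Cd3g, Ms4a1, Nkg7 and Klrb1c were at 0. Hepatocyte markers of the liver lobule's zones were counted in lists of their own. These lists share genes with the hepatocyte list, among them Cps1, which counts as a fall in Yap OE in both the hepatocyte and the periportal list. Of 9 tested periportal markers, 8 fell in Yap OE and none in LATS KO (edgeR), where 10.8% and 0.973% of all genes fell. None of 10 pericentral markers passed in either group. In the reduced fit 10 periportal markers and 1 pericentral marker fell in Yap OE, and none of either list passed in LATS KO. Periportal markers summed to 2482 to 4278 CPM in Yap OE, 2726 to 16857 CPM in LATS KO and 12606 to 23974 CPM in TdTomato. Pericentral markers summed to 303 to 2370.0 CPM in Yap OE, 162 to 5606 CPM in LATS KO and 1216 to 4812 CPM in TdTomato. TdTomato 1 held the 1216 CPM, and TdTomato 2 to 4, at 3569 to 4812 CPM, were above every Yap OE library. LATS KO 1 to 3 were at 162 to 331 CPM of pericentral and 2726 to 8193 CPM of periportal markers. LATS KO 4 to 6 were at 3386 to 5606 CPM of pericentral and 14458 to 16857 CPM of periportal markers. The part of these marker shifts in the changes of the enzymes was not tested.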

How the data were processed

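Poly(A) RNA was sequenced in 15 libraries (5 Yap OE, 6 LATS KO and 4 TdTomato). Per the labels' protocols the libraries were directional, and per the submitters' processing notes the authors used FastQC, Trimmomatic and STAR on mm10, with versions and annotation not given in the sources used here. The deposited values are raw read counts per gene in STAR's 3 columns; the authors deposited the counts with no normalization. The reverse-strand column was used, since the forward column held 0.966% to 1.99% of stranded counts. Lines that name no gene (unmapped, multimapped, outside genes, ambiguous) held 14.2% to 92.5% of reads and stayed out of library sizes and tests. Reads that map to several places are not in the gene counts, which lowers near-identical members.

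Members were all symbols of the Ugt1, Ugt2, Gst, Mgst, Sult and Ces families with at least 10 counts over the 15 libraries. Members, lists and the alternatives were chosen with earlier results of these data known. In edgeR 4.0.16 (R 4.3.3), filterByExpr left 13055 genes, which were scaled with TMM factors and fitted in 1 quasi-likelihood model of all 15 libraries with group as the only term, so the 3 groups share an estimate of the spread with 12 residual degrees of freedom. P-values are two-sided and Benjamini-Hochberg adjusted over all genes tested, with a threshold of 0.05. SE is that of the fitted log2 fold change. The reduced fit, without TdTomato 1 and LATS KO 3, tested 13256 genes. The script was tested on simulated data.

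Alternatives were RLE factors, DESeq2 1.42.0, voom with quality weights (limma 3.58.1), no filter beyond 10 counts, a filter of 5 CPM in 4 libraries, the unstranded column, only the groups compared, a replicate block, and leaving out each library. In each family the 3 members with the highest mean CPM, and the member with the smallest p in a comparison where it passed, are given in every library, other members that passed by mean or fold change, and the rest by ranges. Of each list at most the 2 genes with the smallest p in a comparison are named, besides genes with no count in TdTomato. The labels state no pairing of same-numbered libraries, and the main fit used none. Exon lengths and coordinates are those of GENCODE M21 (GRCm38), and shared sequence was counted in 100-base windows of its transcripts. Intervals and floors (3 counts over a group) cover counting error only.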

Additional observations from a re-analysis of the deposited data

Results flagged for a closer look

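In 129 groups of 4 to 6 libraries, a gap rule for a single value far from its group (Dixon's test at the 95% level, on log2 of CPM + 1) picked out 10. Chance flags about 1 in 20 groups. TdTomato 1, which has few mapped reads, gave 3 of them: Ugt2b34 at 216 CPM against 619 to 638 CPM in the other TdTomato libraries, Sult1d1 at 43.29 CPM against 89.1 to 98.2 CPM, and Sult2a7 at 6.893 CPM against 1.67 to 1.87 CPM. LATS KO 3 gave 1, Ugt1a6a at 0 CPM against 10.6 to 34.9 CPM in the other LATS KO libraries. TdTomato 4 gave 2: Ugt2b36 at 816.7 CPM against 720.0 to 725 CPM in the other TdTomato libraries, and Gsta2 at 7.134 CPM against 19.9 to 24.0 CPM. TdTomato 2 held 1165 CPM of Gsta3 against 849.6 to 890.3 CPM. Yap OE 5 held 43.83 CPM of Gsto1 against 29.7 to 32.7 CPM in the other Yap OE libraries, and still lay below every TdTomato library. Low counts gave the other 2: Sult4a1 at 0.1349 CPM in LATS KO 5, with no count in the other LATS KO libraries, and Mgst2 at 0.3004 CPM in LATS KO 6 against at most 0.0674 CPM.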

How the results depend on the processing

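For Yap OE against TdTomato, the count of members called (30) was 46 with voom and 21 to 34 with each library left out, and 28 to 39 under the other unpaired settings except the filter of 5 CPM in 4 libraries (24). Over all genes (3744), it was 8872 with voom, 6416 in the reduced fit and 2585 to 4973 with each library left out. For LATS KO against TdTomato, the members called (3) were 8 with DESeq2, 13 with voom, 0 with only the groups compared (9 at an unadjusted p below 0.05, edgeR), 9 in the reduced fit and 0 to 5 with each library left out. Over all genes (1438), it was 2894 with DESeq2, 3504 with voom, 810 with the filter of 5 CPM in 4 libraries, 1 with only the groups compared, 2245 in the reduced fit and 588 to 1798 with each library left out. Between Yap OE and LATS KO, the members called (1) were 11 with DESeq2, 45 with voom, 0 with no filter beyond 10 counts (28 at an unadjusted p below 0.05, edgeR), 0 with only the groups compared (18), 12 in the reduced fit and 0 to 8 with each library left out. Over all genes (129), it was 779 with DESeq2, 7325 with voom, 1688 in the reduced fit and 36 to 389 with each library left out. The cause of these differences was not tested.

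Same-numbered libraries of different groups correlated at −0.249 to 0.232 in their deviations from the group means. These deviations also carry the spread among the LATS KO libraries, so they cannot exclude pairing by number. The labels state no pairing. Of the 13 pairs, 2 correlated best with their own number. With a replicate block, 22 members passed in Yap OE against TdTomato, 3 in LATS KO against TdTomato and 0 between Yap OE and LATS KO (11 at an unadjusted p below 0.05, edgeR), with 3134, 740 and 13 genes in all.

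Among the 43 members given by the naming rule, signs changed for 17 results, none of them called. Among the 13 other tested members, 11 results changed sign with the reduced fit, only the groups compared, RLE factors, DESeq2, voom or a library left out, and none was called. For LATS KO against TdTomato, these log2 fold changes were Gstt3 at −0.0147 with only the groups compared, −0.71 with the block and −0.29 to 0.28 with each library left out, Gstm6 at −0.60 to 0.0474 with each left out, Ugt2b36 at 0.0072 and Gstk1 at 0.11 with voom, and Ces2e at −0.10 with the block and −0.12 to 0.40 with each left out. For Yap OE against TdTomato, Gsta3 was at −0.17 with voom, −0.0901 with the block and −0.067 to 0.18 with each left out, Gstm6 at −0.19 with voom, and Gsta4 at 0.0492 with RLE factors, 0.0494 with DESeq2 and −0.21 to 0.0212 with each left out. Between Yap OE and LATS KO, the voom values were −0.12 for Gsta3, −0.21 for Ugt2b34 and 0.76 for Sult1a1, and the reduced fit gave −0.0455 for Ugt2b34 and 0.18 for Sult1a1. The block gave 0.0353 for Gstt1, 0.35 for Gstp2, 0.0946 for Gstm7, 0.0602 for Sult2a7, 0.43 for Ces1c and 0.23 for Ces1d. RLE factors gave 0.0382 for Gstp2 and 0.067 for Gstm7, and DESeq2 gave 0.04 and 0.0676. With each library left out, Gstp2 ranged over −0.50 to 0.22, Gstm7 over −0.13 to 0.0737, Ugt2b34 over −0.0445 to 0.17 and Sult1a1 over −0.28 to 0.18. Depth limits the 12 untested members, whose libraries held at most 6.58 CPM.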
